A study of Mus musculus with 8 samples.

Results

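The genes described here are the netrins and the receptors that bind them: the ligands Ntn1, Ntn3 and Ntn4, and the receptors Dcc, Neo1, Dscam, Unc5a, Unc5b, Unc5c and Unc5d. They were taken by name, as 10 of the 32543 genes in the deposited tables, with earlier results of these data known. All 10 passed the filter on low counts, which left 14157 genes to be tested. RNA came from mouse amygdala at stage E16.5, from cells sorted for GFP and labelled as intercalated cells, which are small clusters of GABAergic neurons around the basolateral amygdala. The 4 control libraries came from Tshz1 GFP/+ embryos and the 4 knockout libraries from Tshz1 GFP/RA embryos, all on an outbred background. Both groups carry the GFP allele of Tshz1, a zinc finger transcription factor gene, so the controls have 1 GFP and 1 wild-type allele, and the labels do not describe the RA allele further. Each library is a pool of embryos of 1 genotype, and separate litters are not stated, so p-values measure the spread between pools, which may be technical. A control and a knockout library share each title prefix (NX, NY, QT and RM), and the labels do not say what the prefix marks.

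Netrins are secreted proteins related to laminins that steer growing axons and migrating neurons. DCC mediates attraction towards netrin-1, UNC5 receptors mediate repulsion alone or together with DCC, and neogenin, the product of Neo1, is the close relative of DCC and also binds repulsive guidance molecules. DCC and UNC5 proteins are also described as dependence receptors, which can promote cell death when their ligand is missing. In the developing forebrain, DCC is known for its part in axon growth and neuronal migration. No sequences are shown, because the results are transcript levels and turn on no sequence.

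Library totals ran from 5785549 to 14535810 expected counts, and 3 counts, taken as the floor, stood for 0.186 to 0.545 CPM (counts relative to library size, here scaled by TMM composition factors). Tshz1 checks the labels: it stood at 492, 240.0, 457 and 337 CPM in the control libraries (NX, NY, QT and RM) and at 121, 61.6, 78.1 and 55.9 CPM in the knockout libraries. Its genotypes did not overlap, and its log2 fold change was -2.27 (SE 0.30, adjusted p = 0.0388 in edgeR). The summed CPM of 6 intercalated cell markers other than Tshz1 ranged from 1557 to 2743 in control and from 1274 to 1978 in knockout libraries, and all 6 were detected. Meis2 alone held 994 to 1786 CPM of these sums. The sum of 6 GABAergic markers ranged from 1610 to 2439 and from 1748 to 1941 CPM, and Gad2 alone held 991 to 1752 CPM. Fitted log2 fold changes of these 6 ran from -0.56 (Slc32a1, SE 0.21) to -0.011 (Dlx2, SE 0.35). None of them passed in edgeR. Both NX libraries were the lowest for 6 of the 7 lists of markers of other cells, all but pericytes and meninges. The 5 radial glia and astrocyte markers summed to 26.7 CPM (control) and 105 CPM (knockout), against 239 to 759 CPM in the other 6 libraries. Cycling progenitor markers (5 genes) summed to 60.3 to 586 CPM in control and 81.2 to 981 CPM in knockout libraries. Pallial glutamatergic markers (6 genes) summed to 27.4 to 239 and 138 to 386 CPM. In bulk libraries, fewer cells of a type and less RNA per cell cannot be told apart.

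Levels between genes were compared in TPM, a unit that corrects for gene length. In control libraries the family was led by Neo1, with Dcc next and the ligands near the bottom. Neo1 stood at 163 ± 32.6 TPM (SD, n = 4), which was 60.7 ± 4.12% of the summed TPM of the 10 genes. Dcc stood at 54.9 ± 9.46 TPM, or 20.7 ± 3.65% of that sum. Its control range (48.6 to 68.9 TPM) did not overlap that of Neo1 (136 to 206 TPM) above it or that of Unc5d (13.8 to 16.6 TPM) below it. Unc5d, at 15.3 ± 1.23 TPM, was the most abundant UNC5 transcript. Unc5a followed at 10.9 ± 2.34 TPM. Their ranges met at 13.8 and 13.9 TPM, although Unc5d was above Unc5a in each of the 4 control libraries.

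Below these, no neighbours in the order differed beyond their ranges. Dscam, a cell adhesion molecule of the immunoglobulin family that can bind netrin-1, stood at 6.15 ± 3.20 TPM and Unc5c at 4.80 ± 2.45 TPM. The ligands followed, with Ntn3 at 3.73 ± 1.99, Ntn1 at 3.30 ± 0.83 and Ntn4 at 3.17 ± 1.396 TPM. Unc5b was last at 1.51 ± 1.11 TPM, and it was listed at 0 in the control NX library. All 3 ligands together gave 10.2 ± 2.92 TPM in control libraries, well under Dcc alone.

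**Figure D1:**
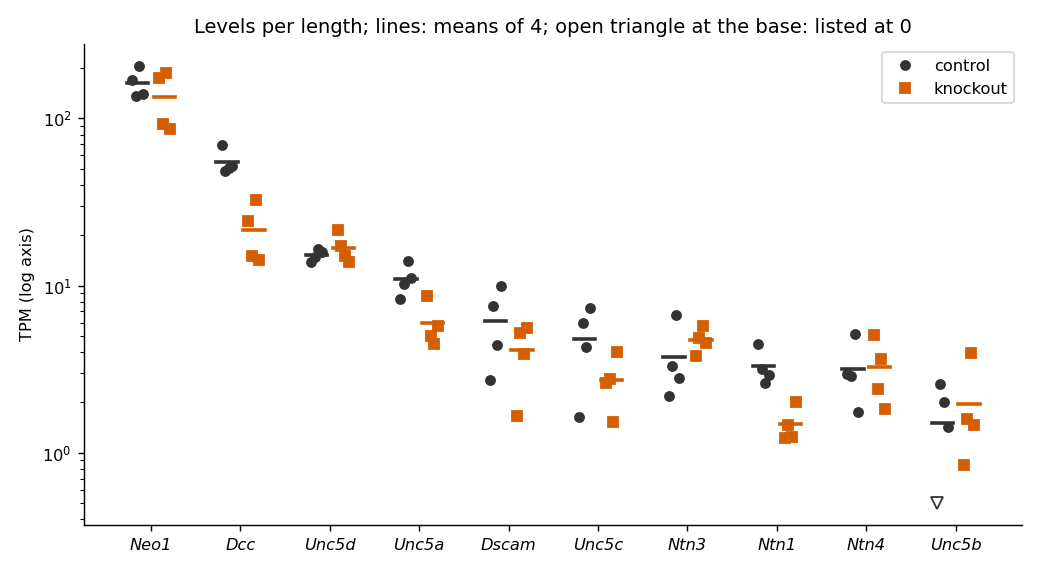
TPM of each gene on a log axis, ordered by the control mean, with 1 point per library (circles control, squares knockout) and lines at the means of 4. Neo1 and Dcc lie above the other 8 genes in control libraries. The knockout points of Dcc lie within the knockout range of Unc5d in NY and RM and above it in NX and QT.

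In knockout libraries the first 4 places of this order were the same, but Dcc and Unc5d were no longer apart. Dcc stood at 21.5 ± 8.73 TPM and Unc5d at 16.8 ± 3.31 TPM (n = 4 each). Dcc made up 10.7 ± 1.28% of the summed TPM of the 10 genes and Neo1 66.9 ± 5.53%. Ntn1 had the lowest mean, at 1.49 ± 0.37 TPM, but its range overlapped that of Unc5b, which was lower in NX and RM.

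The comparison of the genotypes asks which transcripts differ when Tshz1 is disrupted, and within this family Dcc was the gene with the smallest p. Dcc stood at 261 (NX), 237 (NY), 240 (QT) and 257 CPM (RM) in control libraries and at 89.5 (NX), 60.4 (NY), 144 (QT) and 95.0 CPM (RM) in knockout libraries. The genotypes did not overlap. The control values lay within 1 narrow band, with an SD of 12.1 around 249 CPM, while the knockout values spread more widely, with an SD of 34.9 around 97.3 CPM. The mean was 2.56-fold lower in the knockout. Within prefixes the knockout level was 0.343 of the control level in NX, 0.254 in NY, 0.602 in QT and 0.369 in RM, so the QT libraries were the closest pair. Dcc spans 71253634 to 72351069 of chromosome 18 (GRCm38, minus strand), and no other gene in GENCODE overlaps its exons. The annotation release behind the counts was not given. The expected counts of Dcc were whole in 0 of 8 libraries, so fragments may be shared with other entries. Tshz1 lies on the same chromosome and strand, at 84011627 to 84087706. Whether sequence linked to the Tshz1 alleles has a part in the level of Dcc was not tested.

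The log2 fold change of Dcc was -1.36 (SE 0.25), with an unadjusted p of 0.000115. The adjusted p was 0.126 (edgeR, quasi-likelihood test, Benjamini-Hochberg adjustment over all 14157 genes). It did not pass at 0.05. By p it ranked 13 of 14157. A two-sided exact permutation test on the log2 CPM of Dcc gave p = 0.0286 (difference -1.42), the smallest that 4 against 4 libraries can give over 70 orders. Since Dcc was known from earlier results as the member with the smallest p, neither value is independent of its choice. Dcc was called by DESeq2 (adjusted p = 0.000441), which called 0.276% of its genes. EdgeR without the filter on low counts also called it (adjusted p = 0.0356), and called 0.0933%. It was not called by limma-voom (adjusted p = 0.0925) or by edgeR with a stricter filter (adjusted p = 0.124). With log2(TPM + 1) in limma the adjusted p was 0.52. Of 23 alternative settings, 3 called Dcc. Split by depth, the mean log2 CPM of Dcc differed by -1.74 in the deeper libraries (3 control and 2 knockout, totals from 12095637). It differed by -1.13 in the shallower ones, where 1 control library (RM) stands against 2 knockout libraries (QT and RM). Knockout QT was the highest knockout library for Dcc, so depth and prefix cannot be told apart in this split. Summed cycling progenitor markers were higher in the knockout in each prefix. The sums were 60.3 and 81.2 (NX), 361 and 981 (NY), 586 and 852 (QT) and 322 and 832 CPM (RM) for control and knockout. In NX, Ccnb1 (12.8 and 5.58 CPM) and Birc5 (3.84 and 2.18 CPM) were lower in the knockout, while Mki67, Top2a and Cdk1 were higher. None of these markers passed in edgeR. Of the 6 intercalated cell markers other than Tshz1, all were fitted lower and 0 passed in edgeR. At an unadjusted p under 0.05 in edgeR, 2 were lower (Erbb4 and Drd1), as were 1.91% of all tested genes. Erbb4, a neuregulin receptor, stood at 158, 136, 100.5 and 120.1 CPM in control and at 50.4, 79.8, 63.2 and 104 CPM in knockout libraries (NX, NY, QT and RM), at a log2 fold change of -0.79 (SE 0.25). Drd1, a dopamine receptor, had a log2 fold change of -1.57 (SE 0.54). It was higher in the knockout in QT (4.5 and 5.2 CPM for control and knockout). Foxp2, a transcription factor, was at -0.77 (SE 0.41) and lower in 4 of 4 prefixes. Meis2 (-0.24, SE 0.24), Oprm1 (-0.35, SE 0.76) and Pax6 (-0.043, SE 0.34) differed in direction between prefixes. In the knockout, Meis2 was higher in QT, Oprm1 in QT and RM, and Pax6 in NX and NY. The part of either group of markers in the level of Dcc was not tested.

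Over the family, 0 of 10 genes passed at an adjusted p under 0.05 in edgeR, against 5 of all 14157 tested (0.0353%). At an unadjusted p under 0.05, 2 of 10 were lower (Dcc and Unc5a) and 0 were higher, while 1.91% of all genes were lower at that level. DESeq2 called 1 of the 10 (Dcc) and limma-voom 0. Fitted values were lower for 6 genes and higher for 4, with a median log2 fold change of -0.43, against -0.01 over all tested genes. Knockout libraries all lay below control libraries in CPM for 1 of 10 (Dcc), and for 1.46% of all tested genes.

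**Figure D2:**
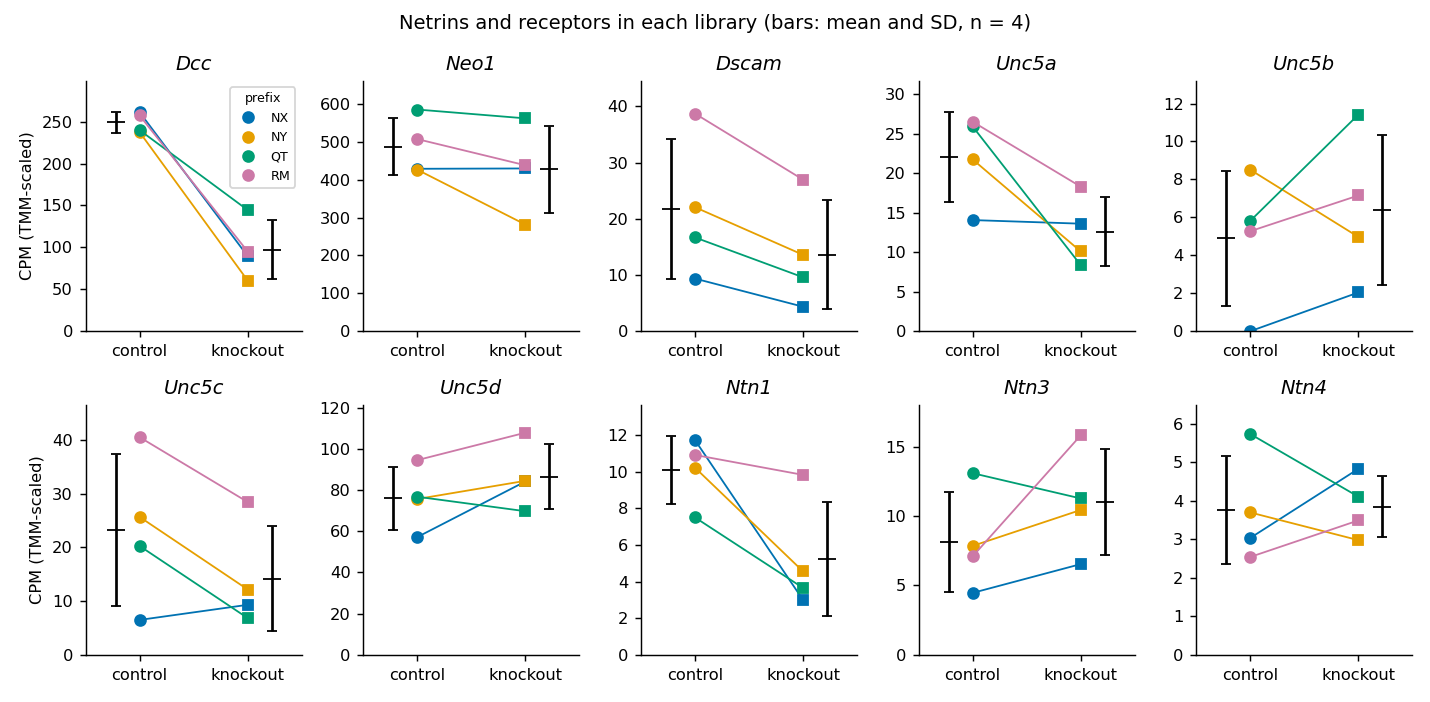
TMM-scaled CPM of the 10 genes in control (circles) and knockout (squares) libraries, with lines that join the libraries of a prefix and bars at the mean and SD of 4. Dcc falls into separate bands of 237 to 261 and 60.4 to 144 CPM, and the other panels overlap.

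Neo1, the most abundant of these receptors, showed no difference of that size. Control libraries held 429, 427, 585 and 507 CPM and knockout libraries 430, 282, 562 and 438 CPM (NX, NY, QT and RM). Control and knockout values overlapped, and the NX libraries were nearly equal. The log2 fold change was -0.19 (SE 0.23, adjusted p = 1.00 in edgeR's test), which does not show that the level was unchanged. The ratio of Dcc to Neo1 within a library, which does not depend on the scaling of libraries, was 0.405 (NX), 0.358 (NY), 0.244 (QT) and 0.369 (RM) in control. It was 0.141, 0.163, 0.176 and 0.163 in knockout libraries. These values did not overlap and averaged 0.344 ± 0.0696 and 0.161 ± 0.0145. They contain the difference in Dcc already given and are not a separate result. The position of Neo1 is chromosome 9, 58874687 to 59036441, minus strand.

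Dscam had lower knockout values in 4 of 4 prefixes, with wide overlap of the groups. It stood at 9.36, 22.1, 16.7 and 38.7 CPM in control and at 4.36, 13.6, 9.59 and 27.0 CPM in knockout libraries (NX, NY, QT and RM). Libraries of the same prefix had the same place in the order within each genotype, with NX lowest and RM highest. The fitted log2 difference was -0.67 (edgeR, SE 0.53, unadjusted p = 0.226), and it ranged from -1.22 without the knockout RM library to -0.25 without the control RM library. Antisense models overlap exons of Dscam on chromosome 16 (96590840 to 97170752, minus strand), and counts without strand cannot separate them.

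None of the 4 repulsive UNC5 receptors passed the test, and their fitted values differed in direction: Unc5a and Unc5c were lower, Unc5b and Unc5d higher. Unc5a stood at 14.1, 21.8, 25.9 and 26.5 CPM in control and at 13.6, 10.1, 8.37 and 18.3 CPM in knockout libraries (NX, NY, QT and RM). Only the control NX library lay within the knockout range. Its log2 fold change of -0.81 (SE 0.33) had an unadjusted p of 0.0295 that became 1.00 after adjustment in edgeR. In TPM the NX libraries were in the other order (8.29 in control, 8.62 in knockout). Hk3 overlaps exons of Unc5a on the other strand of chromosome 13 (54949411 to 55006018, plus strand).

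Unc5d, the UNC5 receptor known from migrating cortical neurons, stood at 57.2, 75.6, 76.8 and 94.5 CPM in control and at 84.2, 84.5, 69.7 and 108 CPM in knockout libraries. The groups overlapped, with the knockout higher in 3 of 4 prefixes and lower in QT. In TPM the knockout was higher in NX and NY and lower in QT (16.6 and 14.9 for control and knockout) and RM (15.9 and 13.9). In edgeR the log2 fold change was 0.19, with SE 0.22 and an unadjusted p of 0.401. Unc5d made up 48.0 ± 6.82% of the summed UNC5 TPM in control and 61.0 ± 4.29% in knockout libraries. That share was higher in the knockout in 4 of 4 prefixes, and the ranges (44.1 to 58.2% and 55.3 to 64.7%) overlapped. The position of Unc5d is chromosome 8, 28646717 to 29219636, minus strand.

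Unc5c stood at 6.51, 25.7, 20.3 and 40.5 CPM in control and at 9.33, 12.2, 6.85 and 28.5 CPM in knockout libraries (NX, NY, QT and RM). Knockout values were lower in 3 of 4 prefixes and higher in NX, and RM was the highest library of each genotype. For Unc5c edgeR gave a log2 fold change of -0.71, with SE 0.53 and an unadjusted p of 0.206. It was -0.31 without the control RM library and -1.27 without the knockout RM library. Gm15688 overlaps exons of Unc5c on the other strand of chromosome 3 (141465216 to 141834924, plus strand).

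Unc5b, which is best known from blood vessels, had 0 counts in the control NX library, which allows up to 0.186 CPM. The other control libraries held 8.51 (NY), 5.82 (QT) and 5.27 CPM (RM), and the knockout libraries 2.04 (NX), 4.97 (NY), 11.4 (QT) and 7.15 CPM (RM). NX was thus the lowest library of each genotype. Endothelial markers (5 genes) summed to 0 and 0.0681 CPM in the control and knockout NX libraries and to 28.1 and 4.14 CPM in the NY libraries. In the knockout QT library, where Unc5b was highest, they summed to 0.609 CPM. The fitted log2 fold change of Unc5b (0.38, SE 0.93) changed sign without the control NX library (-0.051) or the knockout QT library (-0.063). The position of Unc5b is chromosome 10, 60762593 to 60831581, minus strand.

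Set against the UNC5 receptors within a library, Dcc was lower in every prefix. The ratio of Dcc to the summed UNC5 TPM was 2.90 (NX), 1.45 (NY), 1.36 (QT) and 1.45 (RM) in control libraries. It was 0.729, 0.565, 1.31 and 0.563 in knockout libraries. The groups did not overlap, but the QT libraries differed little, at 1.36 and 1.31. Dcc exceeded the UNC5 sum in 4 of 4 control libraries and in 1 of 4 knockout libraries (QT). The ratio of Dcc to Unc5d alone was 3.64 ± 0.909 in control and 1.31 ± 0.597 in knockout libraries. Part of both ratios is the difference in Dcc already given.

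**Figure D3:**
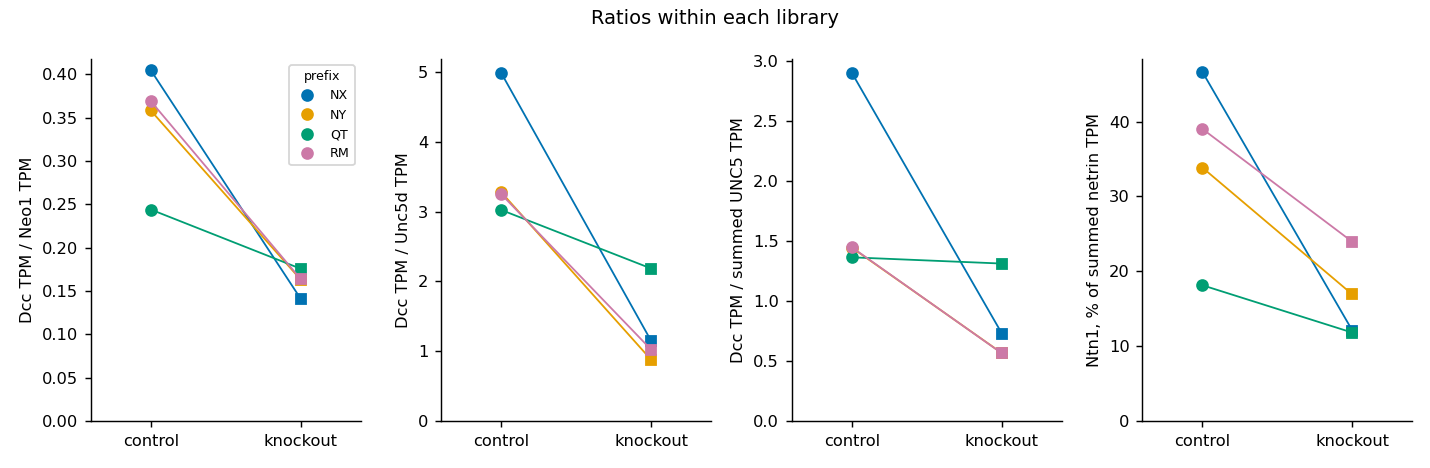
Ratios of TPM within each library for control (circles) and knockout (squares), with lines that join the libraries of a prefix. Dcc relative to Neo1, to Unc5d and to the UNC5 sum is lower in each knockout library than in any control library, and the share of Ntn1 among the netrins overlaps (18.1 to 46.7% and 11.8 to 23.9%).

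Among the ligands, Ntn1, the netrin that guides commissural and forebrain axons, had lower knockout values in each of the 4 prefixes. It stood at 11.7, 10.2, 7.50 and 10.9 CPM in control and at 2.996, 4.55, 3.65 and 9.82 CPM in knockout libraries (NX, NY, QT and RM). Only the knockout RM library reached the control range. The counts were small, with 60 to 189 fragments per control library and 24 to 59 per knockout library. Its log2 fold change of -0.95 (SE 0.44) had an unadjusted p of 0.0508 that became 1.00 after adjustment in edgeR. Without the knockout RM library it was -1.42 (unadjusted p = 0.00545). The position of Ntn1 is chromosome 11, 68209364 to 68400823, minus strand.

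The place of the RM library depended on the unit. In TPM, Ntn1 stood at 4.49, 3.17, 2.60 and 2.92 in control and at 1.22, 1.47, 1.25 and 2.01 in knockout libraries, with no overlap. Ntn1 and Dcc were 2 of 10 genes without overlap in TPM in this direction, a pattern found in 1.05% of all tested genes. TPM in these files are shares of a total in which 7 features with over 1% each took 31.1 to 56.5% in control and 29.5 to 65.4% in knockout libraries. The TMM factors discount such features, and the fold changes given here rest on TMM-scaled counts.

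Ntn3, a netrin that also binds DCC and UNC5 receptors, stood at 4.46, 7.85, 13.1 and 7.09 CPM in control and at 6.54, 10.4, 11.3 and 15.8 CPM in knockout libraries (NX, NY, QT and RM). It was higher in the knockout in 3 of 4 prefixes, with overlap, at a log2 fold change of 0.43 (SE 0.42, unadjusted p = 0.319 in edgeR). Exons of Tbc1d24 on the same strand of chromosome 17 overlap Ntn3 (24203848 to 24209531, minus strand), as do exons of BC028777 on the other strand. Counts given to Ntn3 may therefore belong to these genes. Ntn4, a netrin of basement membranes, had the fewest fragments of the ligands, 14 to 75 per library. It stood at 3.04, 3.70, 5.74 and 2.54 CPM in control and at 4.83, 2.98, 4.11 and 3.49 CPM in knockout libraries. Its log2 fold change was 0.03 (SE 0.49), and prefixes were split 2 against 2. The position of Ntn4 is chromosome 10, 93640681 to 93747207, plus strand.

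**Figure D4:**
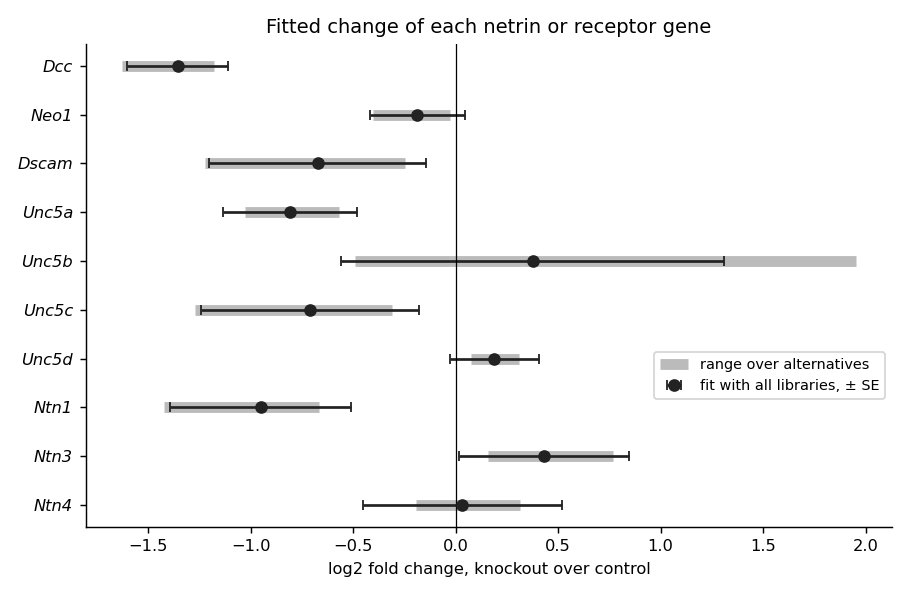
Fitted log2 fold change of each gene (points, bars of 1 SE, edgeR) with the range over 23 alternative settings in grey. The range of Dcc runs from -1.63 to -1.18, and the ranges of Unc5b and Ntn4 cross 0.

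The other genes of the pathway were read from 4 lists written from general knowledge. Of 16 binding partners, 13 were tested and 0 passed in edgeR, with a median log2 fold change of 0.19. At an unadjusted p under 0.05, 2 were higher (Ntng1 and Flrt2) and 1 was lower (Lrrc4c), against 1.7% higher and 1.91% lower of all tested genes. Ntng1 encodes netrin-G1, a membrane-anchored relative of the netrins that does not bind DCC. It stood at 29.0, 19.1, 14.4 and 32.3 CPM in control and at 41.4, 75.0, 30.3 and 64.2 CPM in knockout libraries (NX, NY, QT and RM). It was higher in 4 of 4 prefixes, at a log2 fold change of 1.16 (SE 0.34, unadjusted p = 0.00467, adjusted p = 0.884 in edgeR). Lrrc4c encodes NGL-1, the partner of netrin-G1 on other neurons, and stood at 50.9 ± 15.7 and 29.8 ± 12.1 CPM (n = 4 per genotype). Its knockout libraries all lay below its control libraries, as for 1.46% of all tested genes. The lowest control value (37.4 CPM) and the highest knockout value (36.2 CPM), both in QT, were close. The log2 fold change of Lrrc4c was -0.77 (SE 0.35, unadjusted p = 0.0474, adjusted p = 1.00 in edgeR). Flrt2 encodes a transmembrane protein that binds UNC5 receptors. It stood at 270 ± 32.2 in control and 390 ± 73.9 CPM in knockout libraries, and was higher in 4 of 4 prefixes (log2 fold change 0.53, SE 0.20, unadjusted p = 0.0202, adjusted p = 1.00 in edgeR).

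Among 26 growth cone signalling genes, all tested, 0 passed in edgeR and 0 had an unadjusted p under 0.05. The median log2 fold change was -0.02. Evl, an actin regulator of the Ena/VASP family that acts below DCC, had the smallest p, at 145 ± 46.8 and 102 ± 17.5 CPM (log2 fold change -0.51, SE 0.24, unadjusted p = 0.0514 in edgeR). Trim67, a ubiquitin ligase that binds DCC, stood at 158 ± 19.6 and 130 ± 18.0 CPM and was lower in 4 of 4 prefixes (unadjusted p = 0.145). Prkca, a protein kinase C, stood at 36.5 ± 5.70 and 46.3 ± 6.00 CPM (unadjusted p = 0.131).

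Of the 8 genes of death signalling by dependence receptors, all tested, 0 passed in edgeR and 1 was higher at an unadjusted p under 0.05, as were 1.7% of all tested genes. That gene was Apaf1, the scaffold of the apoptosome, at 43.3 ± 2.86 in control and 59.5 ± 8.81 CPM in knockout libraries (log2 fold change 0.46, SE 0.20, unadjusted p = 0.0374, adjusted p = 1.00 in edgeR). Its knockout libraries all lay above its control libraries, as for 1.13% of all tested genes. Appl1, an adaptor that binds DCC, stood at 140 ± 22.03 and 169 ± 12.9 CPM (unadjusted p = 0.174), and Casp8 stood at 1.76 ± 1.78 and 0.965 ± 0.904 CPM with 0 counts in both NX libraries. Of 10 genes of receptor cleavage and degradation, all tested, 0 passed and 0 had an unadjusted p under 0.05 in edgeR. Psen2 stood at 1.86 ± 0.726 and 1.03 ± 0.497 CPM, and Ncstn, a subunit of gamma-secretase, at 40.4 ± 8.81 and 34.3 ± 5.96 CPM.

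**Figure D5:**
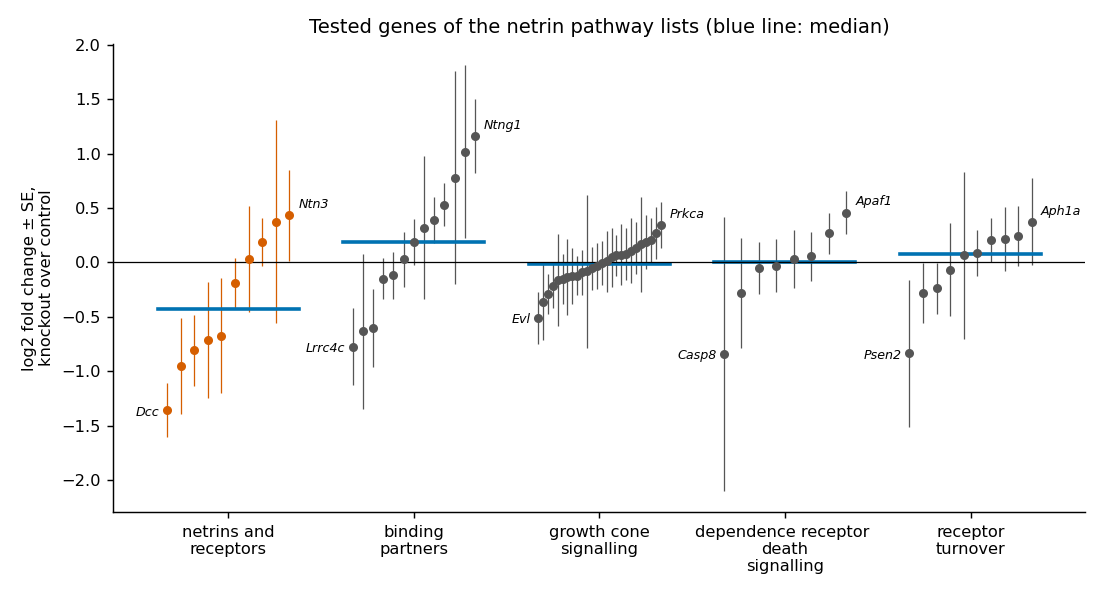
Fitted log2 fold change of each tested gene with bars of 1 SE (edgeR), by list and sorted within it, with the median as a blue line. The medians run from -0.43 for the netrins and their receptors to 0.19 for the list named binding partners. No gene shown passed at an adjusted p under 0.05.

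The genes whose levels over the 8 libraries were most like those of Dcc were sought among 9353 tested genes whose average log2 CPM was 3 or more. The 5 highest Pearson correlations of log2 CPM were those of St3gal3 (0.94), Adcy5 (0.93), Tle4 (0.93), Slc35f1 (0.93) and Celf5 (0.91), and these were the 5 genes above 0.9. The correlations are a description, since all points share the libraries and their genotype. After removal of the genotype means they were 0.60, 0.62, 0.52, 0.54 and 0.83. Tle4, a transcriptional corepressor, stood at 345, 190, 252 and 188 CPM in control and at 57.9, 57.3, 84.6 and 62.7 CPM in knockout libraries (NX, NY, QT and RM). As with Dcc, QT was its highest knockout library. Slc35f1, a member of a solute carrier family, was also narrow in control libraries, at 201 ± 4.84 against 120 ± 20.1 CPM. Adcy5, an adenylyl cyclase of striatal neurons, stood at 15.8 ± 3.42 and 7.14 ± 1.14 CPM. St3gal3, a sialyltransferase, stood at 11.9 ± 1.99 and 5.47 ± 1.16 CPM. Celf5, an RNA-binding protein gene, stood at 184 ± 16.8 and 148 ± 19.7 CPM with overlap between genotypes.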

How the data were processed

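Per the submitters' processing notes, Trimmomatic 0.33, Bowtie2 and RSEM 1.2.22 were used with build mm10. The version of Bowtie2 and the annotation release were not given in these sources. Per the file headers, the deposited values are RSEM expected counts and TPM per gene, with a length in bases (another value) that RSEM weights over transcripts. The sample files and the matrices of the series differed by at most 0 in 16 columns. The kit named in the labels' protocols is not stated to mark strand.

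Expected counts were rounded and tested with edgeR 4.0.16 (R 4.3.3): filterByExpr, TMM, then glmQLFit and glmQLFTest with genotype as the single term and Benjamini-Hochberg adjustment over all tested genes (threshold 0.05). The procedure was tested on simulated data. Log2 CPM used a prior count of 2. Alternatives changed the scaling, filter, libraries, test (DESeq2 1.42.0, limma-voom with limma 3.58.1) and unit (log2 of TPM plus 1 or plus 0.1). The alternatives without control NX and knockout QT, and with TPM rescaled without dominant features, were chosen after seeing the data. Positions are from GENCODE for GRCm38. No molecular identifiers are named for the amplified cDNA, so the floors cover counting error only.

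The genes and lists were chosen with earlier results of these data known. Genes named are the 10 members, Tshz1, from each list the called genes or otherwise the 3 with the smallest p, and the 5 genes most correlated with Dcc. Of these, 1 gene is not reported here. Of the lists, Hjv was not found by symbol, and Ntn5 and Robo3 did not pass the filter.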

Additional observations from a re-analysis of the deposited data

How the results depend on the processing

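Dcc was fitted lower in 23 of 23 alternatives (log2 fold change -1.63 to -1.18, adjusted p 0.000441 to 0.65). It passed in 3 of them: without the low-count filter (-1.35), with a replicate block for the prefix (-1.42, adjusted p = 0.0155) and in DESeq2 (-1.34), each of which called 1 of the 10 genes. With a library left out, the exact permutation difference of Dcc ranged from -1.63 to -1.21 (p = 0.0286 or 0.0571). The number of genes called over the whole table was 5, but 9 without composition factors, 19 without the filter, 28 with the block, 39 in DESeq2, 2 in limma-voom and 10 with log2(TPM + 1). It ranged from 0 to 5 with 1 library left out, with 0 without control NX, QT or RM or knockout NY or QT, and 1 without knockout RM. It was 3 without both NX libraries and 0 without both NY, both QT or both RM libraries, or without control NX and knockout QT. Where edgeR called 0, it had 262 to 716 genes at an unadjusted p under 0.05, and no other tool was run on those libraries. The prefixes were not taken as pairs, since that needed a correlation over 0.1 in every prefix: deviations from the genotype means correlated at 0.385 (NX), 0.303 (NY), 0.0658 (QT) and 0.45 (RM), although 7 of 8 libraries correlated best with their own prefix (knockout QT with RM). The block changed no other call among these genes. With it, Dscam was at -0.78 (edgeR, SE 0.26, unadjusted p = 0.0117, adjusted p = 0.487).

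Dscam, Neo1, Ntn1, Ntn3, Unc5a, Unc5c and Unc5d kept their fitted direction in 23 of 23 alternatives, and none of them passed in any. Ntn4 was fitted lower without composition factors (-0.0072), without both NX (-0.19) or both RM libraries (-0.055) and without control NX and knockout QT (-0.092), and ranged from -0.11 to 0.31 with 1 library left out. Unc5b was at -0.49 without control NX and knockout QT, from -0.063 to 0.80 with 1 left out, and at 1.95 in limma-voom, 0.94 with the block and 0.88 with log2(TPM + 0.1). The order of levels in control libraries was the same for 10 of 10 genes in RPKM. Counts were lowest for Ntn4 (14 to 75 per library) and Unc5b (0 to 115).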

Other observations

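RSEM also reports a length per gene, weighted over its transcript models by their estimated abundance. For Dcc it ranged from 7405 to 9330 bases, with means of 8452 ± 729 (control, n = 4) and 8078 ± 560 (knockout, n = 4). For Dscam it was 7481, 5221, 7481 and 6018 bases in control and 6162, 4839, 4937 and 5671 bases in the knockout, in the prefix order NX, NY, QT, RM. It was shorter in the knockout in each prefix, with overlap between genotypes, and it rests on 63 to 298 fragments per library. For Neo1 it was 5613 ± 42.4 bases in control and 5855 ± 142 bases in knockout libraries. It was longer in the knockout in each prefix, with overlap between genotypes (knockout NY and control QT). The lengths of Ntn1 and Ntn4 were the same in all 8 libraries, at 5757 and 2411 bases. Transcripts were not counted singly, so these lengths do not show which isoforms were present.

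Expected counts were whole, within 0.005 of a count, in 8 of 8 libraries for Ntn1, Ntn3, Ntn4, Dscam and Unc5a. They were whole in 5 of 8 for Unc5c, 2 of 8 for Neo1, 1 of 8 for Unc5b and 0 of 8 for Dcc and Unc5d. A fragment that RSEM shares between genes can leave a fraction. How many fragments of Dcc and Unc5d were shared with other genes was not tested.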
